A study of Mus musculus with 16 samples.

Results

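Insulin signalling and the genes that switch a cell between glucose and fat as fuel were followed in the mouse uterus. The 10 genes listed were Insr, Irs1, Irs2, Pdk1, Pdk2, Pdk4, Angptl4, Lpin1, Cpt1a and Acot2, chosen by symbol and matched through RefSeq accessions to the spots of the array. A spot was matched for 8 of the 10, and all 8 passed the filter on dim probes and were tested among 25030 genes and unnamed targets. No spot was matched to Irs2 or Pdk2, and both genes are not analysed here.

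RNA of the whole uterus was hybridised to 16 one-colour Agilent arrays, 4 in each of 4 groups, and all mice had their adrenals and ovaries removed at 6 weeks of age. GenD mice were injected on postnatal days 1 to 5 with genistein (50 mg/kg), an estrogen-like compound from soy, and at 8 weeks 1 mg/kg dexamethasone, a synthetic glucocorticoid. GenV mice received the same neonatal genistein, and at 8 weeks 100 µl saline as vehicle. SalD mice were neonatal controls given dexamethasone at 8 weeks, and SalV mice were neonatal controls given the saline vehicle. The neonatal control injection was 20 µl corn oil in the series design and saline in the sample labels. Tissue was collected 4 hours after the adult injection. The labels name no animals, so the p-values below measure the spread between arrays, which may be partly technical.

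Insulin binds its receptor, which phosphorylates insulin receptor substrates, and these pass the signal through PI3-kinase and AKT and keep FOXO transcription factors out of the nucleus. Pyruvate dehydrogenase kinases switch off pyruvate dehydrogenase, so that pyruvate is spared and fatty acids are burned. Glucocorticoids and fasting are known to raise Pdk4, Angptl4 and Lpin1 in tissues such as liver, muscle or fat, and insulin is known to oppose the rise of Pdk4.

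The promoters of Pdk4 and Lpin1, which moved together across arrays, and of Cpt1a, which moved the other way mainly between groups, are shown first. Each run holds the 250 bases before the transcription start from RefSeq, build GRCm38.p6, written 5′ to 3′ on the strand of the gene. Capitals mark the reverse complement of the glucocorticoid receptor half-site AGAACA.
Pdk4 at chr6:5496279-5496528, minus strand: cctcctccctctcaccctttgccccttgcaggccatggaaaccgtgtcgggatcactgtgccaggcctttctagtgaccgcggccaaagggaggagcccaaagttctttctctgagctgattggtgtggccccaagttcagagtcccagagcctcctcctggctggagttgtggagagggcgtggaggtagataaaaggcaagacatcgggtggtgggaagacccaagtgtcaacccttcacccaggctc
Lpin1 at chr12:16610967-16611216, minus strand: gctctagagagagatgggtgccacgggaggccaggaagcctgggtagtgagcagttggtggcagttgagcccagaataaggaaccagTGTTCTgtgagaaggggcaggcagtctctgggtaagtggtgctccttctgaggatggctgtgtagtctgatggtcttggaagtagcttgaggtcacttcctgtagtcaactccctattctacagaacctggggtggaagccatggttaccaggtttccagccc
Cpt1a at chr19:3323051-3323300, plus strand: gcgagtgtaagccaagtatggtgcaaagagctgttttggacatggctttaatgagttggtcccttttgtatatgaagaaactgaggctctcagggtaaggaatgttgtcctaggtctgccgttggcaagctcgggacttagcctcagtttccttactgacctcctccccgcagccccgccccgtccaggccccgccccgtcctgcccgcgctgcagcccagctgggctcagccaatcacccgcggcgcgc

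RefSeq's table held 10 such promoters for 8 of the 10 genes. It had no promoter of Insr or Angptl4, so these genes were not searched. Both strands were searched for 6 motifs. These were the glucocorticoid half-site AGAACA, the full glucocorticoid element (that half-site, any 3 bases and its reverse complement), the PPAR element (AGGTCA repeated after any 1 base), the forkhead element GTAAACA bound by FOXO factors, the cyclic AMP half-site TGACG and the E-box CACGTG. The half-site can also match inside the full element. Among all 32851 promoters of that length, 16.1% held the half-site, 0.00913% the full element, 0.0335% the PPAR element, 3.17% the forkhead element, 17.8% TGACG and 6.02% the E-box. The Lpin1 promoter held 1 half-site, at position -163 from the start. A second start of Pdk1 held half-sites at -153 and -138. Irs1 held TGACG at -118 and an E-box at -115 that overlaps it, and Acot2 held TGACG at -117. Of the genes without a spot, Irs2 held an E-box at -44 and Pdk2 held one at -126. None of the 6 motifs was spelled in the windows of Pdk4 or Cpt1a. A match describes the letters and does not show a bound site.

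Levels are given as log2 of the spot signal minus log2 of the 75th percentile of that array, so that 0 is the 75th percentile and differences are log2 changes. The level of one gene cannot be set against that of another, because each probe has its own brightness. Arrays ranged in 75th percentile signal from 948 to 2719, and the share of spots well above background ran between 68.9% and 81.3%. The 75th percentile signal was 2719, 1987, 2507 and 2615 on the SalD arrays and 1795, 1691, 948 and 2029 on the SalV arrays. It ran from 1321 to 1803 in GenD and from 1439 to 1970 in GenV. The scaling thus took more from most SalD arrays than from the others, which enters every comparison with SalD. All 8 genes were well above background on all 16 arrays, and none was saturated. A spot flagged as an outlier was left out, which removed SalV array 2 for Insr and GenD array 1 for Angptl4. The median change of all genes by dexamethasone was -0.02 after genistein and -0.16 in controls, and the changes below are not corrected for it. The 8 markers of uterine epithelium were well above background on every array. So were the 7 markers each of endometrial stroma and smooth muscle that were summed. Markers of fat cells varied widely between arrays, as given below. In whole tissue, fewer cells of a type and less RNA per cell cannot be told apart.

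**Figure D1:**
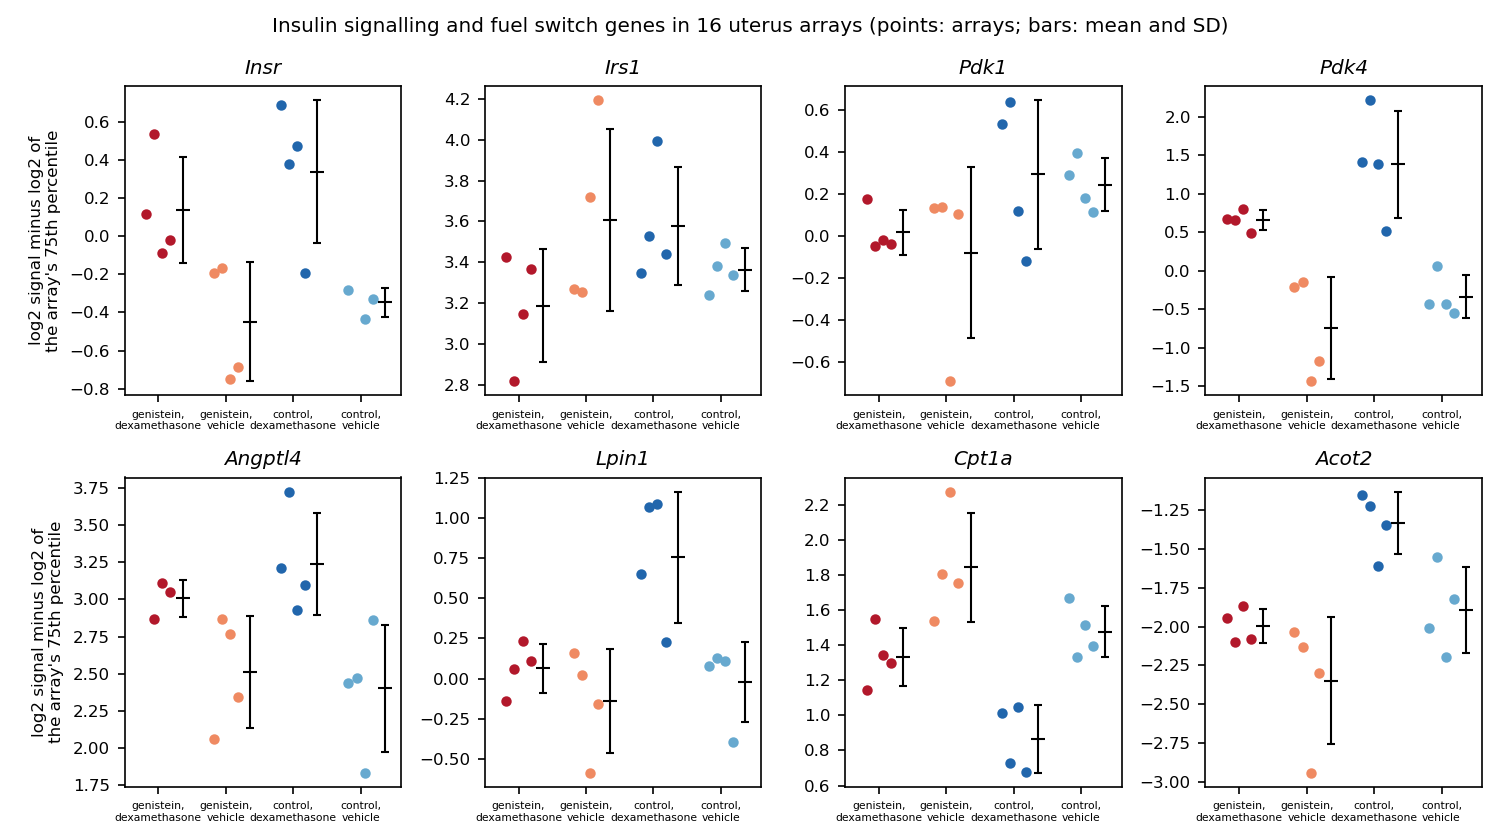
Level of each of the 8 genes on each array, as log2 signal minus log2 of the array's 75th percentile, in the GenD, GenV, SalD and SalV groups. Points are arrays and bars are the mean and SD of the group; Pdk4 is higher on every dexamethasone array than on the vehicle arrays of the same neonatal treatment, and Cpt1a is lowest in SalD.

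Dexamethasone was first set against vehicle in neonatal controls, to show how the genes respond to glucocorticoid without genistein. Pdk4, Angptl4, Lpin1 and Insr rose and Cpt1a fell, so 5 of the 8 genes were called at an adjusted p below 0.05. In this comparison 23.0% of all genes tested were called, 8.61% higher and 14.4% lower. The groups were apart for 5 of the 8 genes, the same 5 that were called, against 28.5% of all genes. A call and groups apart come from the same arrays and are not independent. The median change of the 8 genes was 0.62. Acot2, Irs1 and Pdk1 did not pass the test.

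Pdk4 encodes the pyruvate dehydrogenase kinase that fasting and glucocorticoids are known to induce. Its level was 1.42, 2.22, 1.39 and 0.52 on the SalD arrays and -0.43, 0.07, -0.43 and -0.55 on the SalV arrays. Every SalD array lay above every SalV array, although SalD array 4 was clearly lower than the other three. The change was 1.72 (SE 0.34, limma adjusted p = 0.00376), a 3.30-fold rise. It remained called in 30 of 30 alternative settings, with changes between 1.30 and 2.01. Within the slides that held both groups the change was 1.80, 1.35 and 1.94, on 3, 2 and 2 arrays, and it was 1.74 with slide as a block. The within-slide changes of the other genes and comparisons also rest on 2 or 3 arrays each.

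Angptl4 encodes a secreted inhibitor of lipoprotein lipase, the enzyme that frees fatty acids from circulating triglyceride. Its level was 3.21, 3.72, 2.93 and 3.10 on the SalD arrays and 2.44, 2.47, 1.83 and 2.86 on the SalV arrays. The groups were apart by a small margin, between SalD array 3 and SalV array 4. The rise was 0.84 (SE 0.24, limma adjusted p = 0.0266), or 1.79-fold. Within slides it was 0.98, 0.74 and 0.06, and with slide as a block 0.62 (limma adjusted p = 0.097), no longer called. The call also ended without SalD array 1 or 2 or SalV array 1 or 3, with changes of 0.85, 0.68, 0.85 and 0.65.

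Lpin1 encodes lipin 1, which makes diacylglycerol for triglyceride synthesis and in liver also acts as a coactivator of fat oxidation genes. Its level was 0.65, 1.07, 1.09 and 0.22 on the SalD arrays and 0.08, 0.13, 0.11 and -0.40 on the SalV arrays. No SalD array fell within the SalV range, and SalD arrays 2 and 3 were the highest of the 16. The rise was 0.78 (SE 0.21, limma adjusted p = 0.0191), or 1.71-fold. Without SalD array 3 it was 0.67 (limma adjusted p = 0.058), and without SalD arrays 2 and 3 it was 0.46 (limma adjusted p = 0.204). Within slides the change was 0.57, 0.52 and 1.48. The 2 other Lpin1 probes changed by 0.74, which was called, and by 0.51, which was not.

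Insr encodes the insulin receptor. By its brighter probe its level was 0.69, 0.38, 0.47 and -0.19 on the SalD arrays and -0.28, -0.43 and -0.33 on SalV arrays 1, 3 and 4. SalD array 4 was nearest to the vehicle arrays, and the groups did not overlap. The rise was 0.69 (SE 0.23, limma adjusted p = 0.0446), or 1.61-fold, close to the threshold. It was called in 12 of 30 alternative settings. When arrays were left out one at a time, the call ended for GenD arrays 1, 3 and 4, SalD arrays 1, 2 and 3 and all 4 SalV arrays, with changes between 0.57 and 0.72. Within the 2 slides with a value it was 0.38 and 0.80, and with slide as a block 0.61 (limma adjusted p = 0.118). A second, far dimmer Insr probe changed by -0.08 (SE 0.40), so the 2 probes disagree in sign.

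Cpt1a encodes the liver form of carnitine palmitoyltransferase 1, the gate for entry of long-chain fatty acids into mitochondria. It was the one gene of the 8 called lower. Its level was 1.02, 0.73, 1.05 and 0.67 on the SalD arrays and 1.67, 1.33, 1.52 and 1.40 on the SalV arrays. On this scale the 4 SalD arrays were the lowest of all 16. Before scaling, the signals were 5501, 3287, 5179 and 4175 in SalD and 5705, 4258, 2717 and 5343 in SalV, which overlap. The change was -0.61 (SE 0.16, limma adjusted p = 0.0171), a 1.53-fold fall. Its second probe changed by -0.87 and was called as well. Under median scaling the brighter probe gave -0.38 and was not called. Without SalD array 4 or SalV array 1 the call ended, at -0.55 each. Within slides the change was -0.97, -0.32 and -0.35.

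The 3 genes not called in controls differed in how near they came. Acot2, a mitochondrial thioesterase that releases free fatty acid from its CoA ester, had levels of -1.15, -1.22, -1.61 and -1.35 in SalD and -2.01, -1.55, -2.20 and -1.82 in SalV. SalV array 2 lay inside the SalD range. The change was 0.56 (SE 0.20, limma adjusted p = 0.0518), and 9 of 30 alternative settings called it higher. Irs1, the substrate that carries the receptor's signal, changed by 0.21 (SE 0.21, limma adjusted p = 0.497). Its levels were 3.35 to 4.00 in SalD and 3.24 to 3.49 in SalV, which overlapped. Pdk1, a kinase of the same family as Pdk4, changed by 0.05 (SE 0.20, limma adjusted p = 0.887). Its levels were -0.12 to 0.64 in SalD and 0.11 to 0.40 in SalV.

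**Figure D2:**
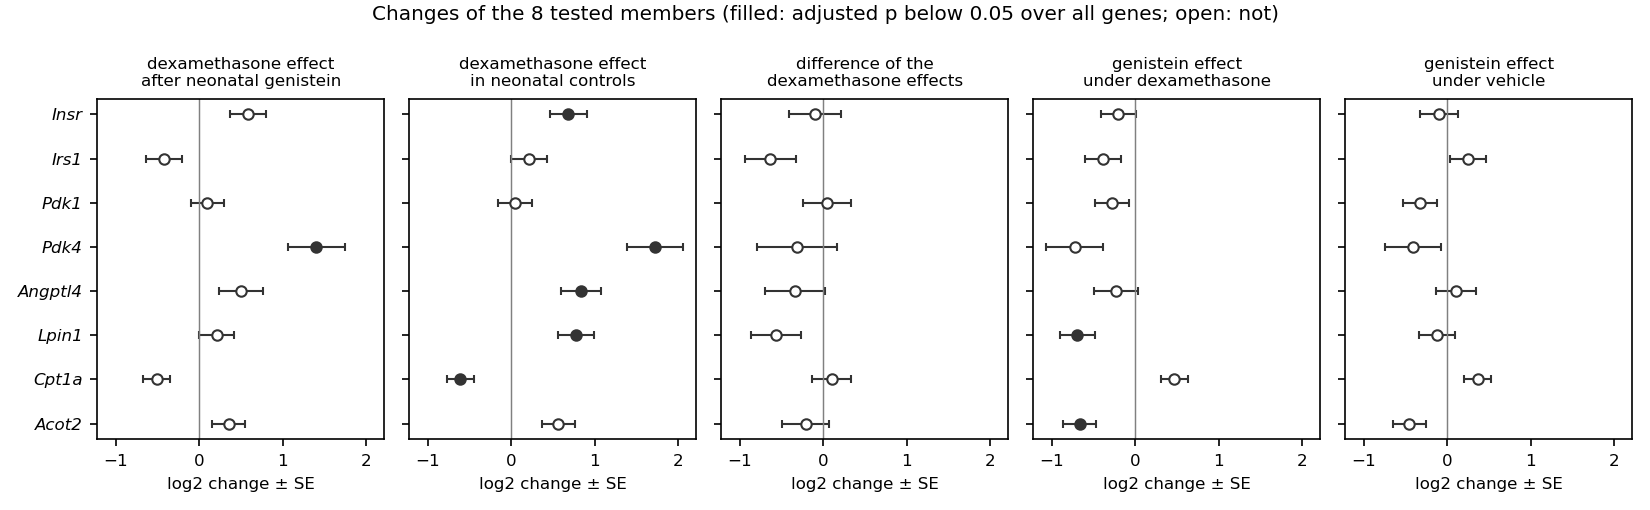
log2 change and SE of each of the 8 genes (rows) in the 5 comparisons (panels). Filled points have a limma adjusted p below 0.05 over all genes tested; Pdk4 is filled in both dexamethasone panels, and no gene is filled in the panel of the difference between the dexamethasone effects.

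The same drug was then set against vehicle after neonatal genistein. Pdk4 was the one gene of the 8 called, and it rose, against 5.32% of all genes called, 2.52% called higher and 2.80% called lower. The groups were apart for Pdk4, Insr and Angptl4, against 12.4% of all genes. The median change of the 8 genes was 0.28.

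Pdk4 had levels of 0.67, 0.67, 0.81 and 0.50 on the GenD arrays and -0.22, -0.14, -1.44 and -1.18 on the GenV arrays. The GenD arrays lay close together (SD 0.13), whereas GenV arrays 3 and 4 were clearly below GenV arrays 1 and 2. The rise was 1.40 (SE 0.34, limma adjusted p = 0.0269), or 2.65-fold. Without GenV arrays 3 and 4, which lay apart from GenV arrays 1 and 2 on the second principal component of all genes, it was 0.84 (limma adjusted p = 0.169). It was called in 21 of 30 alternative settings. The call ended without GenD array 1, 2 or 3 or GenV array 3 or 4, with changes of 1.40, 1.40, 1.35, 1.17 and 1.26. Within slides it was 1.85, 0.64 and 0.95, and with slide as a block 1.24 (limma adjusted p = 0.116).

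Insr had levels of 0.12, 0.53, -0.09 and -0.02 in GenD and -0.19, -0.17, -0.75 and -0.69 in GenV. The groups were apart, with a change of 0.58 (SE 0.21, limma adjusted p = 0.143) that did not pass the test. The dimmer Insr probe changed by 0.51. Angptl4 had 2.87, 3.11 and 3.05 on GenD arrays 2 to 4 and 2.06, 2.87, 2.77 and 2.34 in GenV. GenD array 2 and GenV array 2 were level to 2 decimals, and the change was 0.50 (SE 0.26, limma adjusted p = 0.354).

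Cpt1a had levels of 1.15, 1.55, 1.34 and 1.30 in GenD and 1.54, 1.81, 2.28 and 1.76 in GenV. The ranges overlapped only at GenD array 2 and GenV array 1. The change was -0.51 (SE 0.16, limma adjusted p = 0.0914), not called. Lpin1 had -0.14, 0.06, 0.23 and 0.11 in GenD and 0.16, 0.02, -0.59 and -0.16 in GenV. These overlapped widely, and the change was 0.21 (SE 0.21, limma adjusted p = 0.695). Acot2 changed by 0.35 (SE 0.20), Irs1 by -0.42 (SE 0.21) and Pdk1 by 0.10 (SE 0.20), with overlapping groups and no call.

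**Figure D3:**
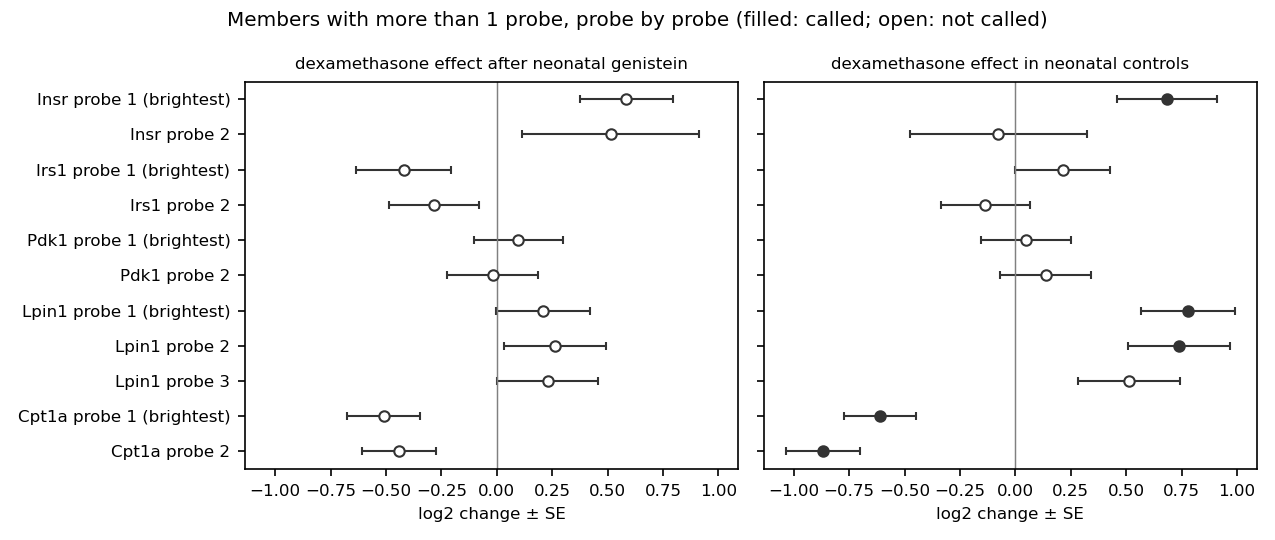
log2 change and SE of every probe (rows) of the 5 genes with more than 1 probe, for dexamethasone after genistein (left) and in controls (right). Filled points are called when every probe is fitted by itself; the 3 Lpin1 probes lie between 0.51 and 0.78 in controls, the 2 Cpt1a probes are both below 0, and the dim second Insr probe is near 0 in controls.

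Whether genistein altered the response to dexamethasone was tested as the difference of the 2 effects. None of the 8 genes was called, and 0% of all genes was called, while 3877 genes had an unadjusted p below 0.05 by limma. Pdk4 differed by -0.32 (SE 0.48, limma adjusted p = 0.766). The largest differences were -0.63 for Irs1 (SE 0.30, unadjusted p = 0.0551 by limma) and -0.57 for Lpin1 (SE 0.30, unadjusted p = 0.0779 by limma), with adjusted p of 0.333 and 0.37. Those of Insr, Angptl4, Cpt1a, Acot2 and Pdk1 lay between -0.34 and 0.10. A gene called in controls and not after genistein is therefore not shown to respond differently.

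Genistein was set against control within each adult treatment. Under dexamethasone, Acot2 and Lpin1 were lower in GenD than in SalD, so 2 of the 8 genes were called, against 22.8% of all genes called and 6.47% called lower. This comparison shares the SalD arrays with that of dexamethasone in controls, and the values are not independent. Acot2 had -1.94, -2.10, -1.87 and -2.08 in GenD and -1.15, -1.22, -1.61 and -1.35 in SalD. All GenD arrays lay below all SalD arrays, as did the groups of 28.7% of all genes in either direction. The change was -0.67 (SE 0.20, limma adjusted p = 0.0282). It was -0.95 and -0.47 within the 2 slides that held both groups, and -0.75 without SalD arrays 2 and 3 (limma adjusted p = 0.074). The call also ended without GenD array 2 or 4 or SalD array 1, 2 or 4, with changes between -0.67 and -0.61.

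Lpin1 had -0.14, 0.06, 0.23 and 0.11 in GenD and 0.65, 1.07, 1.09 and 0.22 in SalD. SalD array 4 lay at the upper end of the GenD range, and the other 3 SalD arrays were above it. The change was -0.69 (SE 0.21, limma adjusted p = 0.0329), and without SalD arrays 2 and 3 it was -0.37 (limma adjusted p = 0.314). The call ended without any one of the 4 GenD arrays or of SalD arrays 1, 2 and 3, with changes between -0.75 and -0.58. The other Lpin1 probes changed by -0.58 and -0.26 and were not called. Within slides the change was -0.59 and -0.98. Pdk4, at 0.66 ± 0.13 in GenD and 1.39 ± 0.70 in SalD (SD, n = 4), changed by -0.73 (SE 0.34, limma adjusted p = 0.129). It was called lower, at -1.02, in the fit without SalD array 4. Cpt1a was higher on every GenD array than on every SalD array, but its change of 0.47 (SE 0.16, limma adjusted p = 0.0522) narrowly missed the threshold and was called in 9 of 30 alternative settings.

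Under vehicle none of the 8 genes was called, against 0.00400% of all genes, which is 1 gene. At an unadjusted p below 0.05 limma had 3463 genes in this comparison. Acot2 changed by -0.46 (SE 0.20, unadjusted p = 0.0358, adjusted p = 0.353 by limma) and Cpt1a by 0.37 (SE 0.16, unadjusted p = 0.0409, adjusted p = 0.355 by limma). The groups overlapped for both and for the other 6 genes, and were apart for 4.82% of all genes. The second Cpt1a probe changed by -0.17, opposite in sign. Pdk4 changed by -0.41 (SE 0.34), Pdk1 by -0.32 (SE 0.20), Irs1 by 0.25 (SE 0.21), and the other 3 by between -0.12 and 0.11.

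By group mean, SalD was highest for Pdk4, Angptl4, Lpin1, Insr, Acot2 and Pdk1. For Pdk4 the order was SalD at 1.39, GenD at 0.66, SalV at -0.33 and GenV at -0.74. Of its neighbours in that order, neither GenD and SalD nor GenV and SalV differed by the test. Cpt1a had the reverse order by its brighter probe, with GenV at 1.85, SalV at 1.48, GenD at 1.33 and SalD at 0.87. Its second probe had SalV highest at -1.58, then GenV at -1.75, GenD at -2.19 and SalD at -2.45. Irs1 was highest in GenV, at 3.61, and lowest in GenD, at 3.19, and no 2 groups tested differed.

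The levels of the genes were also compared with each other across arrays, as a description, since arrays of one group share a treatment and some share a slide. Pdk4 and Lpin1 had a Pearson r of 0.86 over 16 arrays, and 0.79 after the group means were removed. Pdk4 and Insr had 0.89 over 15 arrays and 0.67 within groups. Cpt1a and Acot2 ran opposite, with -0.91 over 16 arrays and -0.74 within groups. Cpt1a had -0.83 with Pdk4 and -0.71 with Lpin1 over 16 arrays, but -0.35 and -0.15 within groups. Pdk4 and Angptl4 had 0.70 over 15 arrays but 0.19 within groups, so their likeness lay mainly between groups. Of all genes with a symbol, those most like Pdk4 over the 16 arrays were Trp53inp1 (0.97), Depp1 (0.97), a gene known as a FOXO target, and Klf15 (0.96), a glucocorticoid-induced transcription factor. Depp1 was also among the 3 genes most like Insr, at 0.92 over 15 arrays, after Npy1r and Sertad4. For Angptl4 they were Tsc22d1 (0.92 over 14 arrays), Mgarp and Rtca, and among those for Lpin1 were Aoc3 (0.91) and Hipk3. For Cpt1a they were Il10ra (0.94), Fcrls and Plscr3, and for Acot2 Lrp4 (0.95), Fnip1 and Abl2. For Irs1 they were Itpr3 (0.92), 4931428F04Rik and Wdr78, and among those for Pdk1 were Bex1 (0.90 over 15 arrays) and Pcnx4.

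Pdk4, Angptl4 and Lpin1 are also expressed in fat cells, and markers of fat cells varied between the uteri. Of the 15 adipocyte markers tested, of 16 listed, 0 were called after genistein and 8 rose in controls, among them Adipoq by 3.84, Lep by 4.63 and Retn by 4.27. Of all genes, 5.32% were called after genistein and 8.61% were called higher in controls. The SalD and SalV ranges overlapped for Adipoq and Retn. Lep was well above background on only 11 of 16 arrays, with SalV levels of -6.23, -8.46, -8.25 and -8.59. The summed level of the 14 markers measured on every array was 3.72, 6.46, 6.47 and 6.39 in GenD and 6.23, 4.66, 5.39 and 6.41 in GenV, on the log2 scale. It was 4.16, 7.99, 7.81 and 6.65 in SalD and 4.96, 3.24, 3.97 and 2.07 in SalV. Between 12 and 14 of the 14 were well above background on each array. The difference between SalD and SalV was 3.09 (exact two-sided permutation test, p = 0.0571, n = 4 each, smallest possible p 0.0286). That between GenV and SalV was 2.11, with the same p by that exact permutation test, that between GenD and GenV 0.09 (exact p = 0.771) and that between GenD and SalD -0.89 (exact p = 0.429). The marker list was written with earlier results of these data known, so these p-values are descriptive only. SalD array 1, with a sum inside the SalV range, had 1.42 for Pdk4, 3.21 for Angptl4, 0.65 for Lpin1 and 1.02 for Cpt1a. These values lie outside the SalV ranges of the 4 genes. GenD array 1 had the lowest sum of its group and 0.67 for Pdk4, the same as GenD array 2. Without SalD arrays 2 and 3, the 2 with the highest sums, Pdk4 rose by 1.30 (limma adjusted p = 0.0348) and was the one of the 8 genes called. That fit kept only SalD arrays 1 and 4, so calls are harder to reach. The sum of SalD array 4, at 6.65, still lay above the SalV range. Across 16 arrays the r with the sum was 0.56 for Lpin1 and 0.42 for Pdk4, and within groups 0.51 and 0.08. For Angptl4 the r was 0.37 over 15 arrays and -0.28 within groups. For Cpt1a it was -0.25 over 16 arrays and 0.09 within groups. The part of fat cells in the changes of the 8 genes was not tested.

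**Figure D4:**
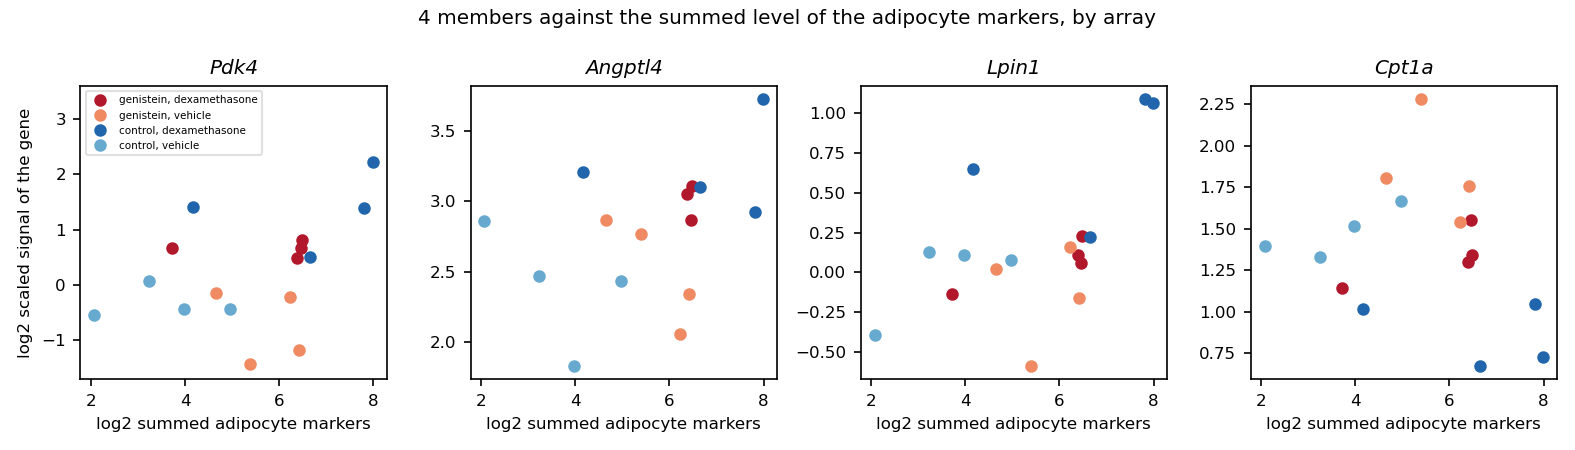
Level of Pdk4, Angptl4, Lpin1 and Cpt1a (vertical, log2 signal minus log2 of the array's 75th percentile) against the log2 summed level of 14 adipocyte markers (horizontal) on each array, coloured by group. SalD array 1, at a sum of 4.16, has a Pdk4 level of 1.42, and the 2 highest Lpin1 levels are those of the SalD arrays with the highest sums.

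Some markers of other cell types were called as well, and their part in the changes above was not tested. Of all genes, 8.61% were called higher and 14.4% lower in controls, and 2.52% higher and 2.80% lower after genistein. Between GenD and SalD, 16.4% of all genes were called higher and 6.47% lower. The counts of these short lists stand beside those shares. The endothelial sum was 1.66 to 1.85 in GenD and 1.96 to 2.46 in GenV, apart but with no marker called. It was 1.59 to 1.87 in SalD and 2.29 to 2.79 in SalV, apart as well. Of 6 endothelial markers, Eng, Kdr and Tie1 were called lower in SalD. The smooth muscle sum was 6.40 to 7.42 in SalD and 7.56 to 8.26 in SalV, and of 8 markers Acta2 and Actg2 were called lower. Of 8 skeletal muscle markers, Myh1 and Myh4 were called lower in SalD, and of 8 stromal markers Hoxa11 was called higher. Of 6 liver markers 3 were tested, and Tat, tyrosine aminotransferase, a classical glucocorticoid-induced gene, was called higher in both comparisons, by 2.56 after genistein and 3.21 in controls. No macrophage or uterine epithelial marker was called in controls. After genistein Lyz2 and Col3a1 were called lower and Hand2, Hoxa10 and Hoxa11 higher. Between GenD and SalD, where Acot2 and Lpin1 were called lower, 3 of 8 skeletal muscle markers were called higher in GenD, Myh1 by 1.96, Myh4 by 1.48 and Atp2a1 by 0.92. Eng was called higher by 0.68, and the macrophage marker Itgam changed by -1.26, called lower.

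Other genes of the same pathways were taken from 6 lists, and the part of fat cells in their changes was not tested. Of all genes tested, 5.32% were called after genistein and 23.0% in controls, and the counts of the 6 lists stand beside these shares. In insulin signal transduction, 1 gene rose and 1 fell of 37 tested after genistein, and 3 rose and 7 fell in controls. Both counts were close to the shares of all genes. Pik3r1, the regulatory subunit of PI3-kinase, rose in both, by 0.80 (SE 0.16, limma adjusted p = 0.0102) after genistein and by 1.23 (SE 0.16, limma adjusted p = 0.000306) in controls. With the mean of its probes Pik3r1 gave 0.49 after genistein and 0.17 in controls, neither called, and its call after genistein also ended without GenV arrays 3 and 4, at 0.52. Akt2, the AKT kinase most tied to glucose uptake, changed by -1.07 in controls, Gab1, a docking protein, by -1.15, and Grb14, an inhibitor of the insulin receptor, by -1.15, all called. The count in controls was 6 without SalD array 3. Pik3cd was called lower after genistein, at -0.67 (limma adjusted p = 0.0496), and kept its call in 10 of 30 alternative settings. The count of 2 after genistein was 1 without GenD array 3 or 4, GenV array 1 or 2, any one SalD array or SalV array 1, 3 or 4. Of the list's other genes, Foxo1 changed by -0.40 after genistein and -0.22 in controls, and Igf1r by -0.22 and -0.38, without calls.

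The pyruvate dehydrogenase and pyruvate supply list, whose enzyme the Pdk genes inhibit, had 0 calls of 12 genes after genistein, with median 0.15, and 6 rises in controls, with median 0.47. Pdhx, which anchors a subunit of the complex, rose by 0.90 in controls, Pdhb and Pdha1, its first enzyme, by 0.74 and 0.57, and Ldha, lactate dehydrogenase A, by 0.63. The Ldha call held in 21 of 30 alternative settings and ended, among others, with the mean of its probes, at 0.20, and without SalD array 3 or 4 or SalV array 1, 2 or 3. The Pdha1 call held in 12 of 30 and ended without GenD array 1, 3 or 4, GenV array 1 or 3, SalD array 1, 3 or 4 or SalV array 1, 2 or 3, with changes between 0.45 and 0.61. The count of 6 was 3 without any one of SalV arrays 1, 2 and 3, 3 with slide as a block, and 2 without SalD arrays 2 and 3. Pdk3, the remaining kinase, changed by -0.27 after genistein and -0.03 in controls, without a call. After genistein Mpc1, a subunit of the mitochondrial pyruvate carrier, changed by 0.40 and Pdhb by 0.31, not called.

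In fatty acid oxidation and its regulators, 36 genes were tested, of which 8 rose and 5 fell in controls. The median change of the list was 0.02 after genistein and 0.08 in controls. In controls Acsl1, which activates fatty acids, rose by 1.07, and Acaca, which makes malonyl-CoA, by 1.25. Acsl1 was not called without SalV array 4, at 0.93, or without SalD arrays 2 and 3, at 0.63, and Acaca was not called with the mean of its probes, at 0.31. Hadha, a subunit of the mitochondrial trifunctional protein, changed by -1.18, called lower. Ucp3 was called higher at 1.81 with overlapping groups, at a very low level, and gave -0.92 with normexp background correction. Its call held in 15 of 29 alternative settings and ended without GenD array 3 or 4, GenV array 1 or 3, SalD array 2, 3 or 4 or SalV array 2, 3 or 4. Without SalD arrays 2 and 3 the list had 2 rises and 4 falls in controls. Ppara and Ppargc1a, regulators of this pathway, were not called in either comparison.

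Among 10 acyl-CoA thioesterases tested, 2 rose in each comparison, and both were the same genes. Acot1, the cytosolic thioesterase next of kin to Acot2, rose by 1.18 (SE 0.15, limma adjusted p = 0.000464) after genistein and by 0.90 (SE 0.15, limma adjusted p = 0.00164) in controls. Acot11 rose by 0.77 after genistein and by 0.85 in controls. With the mean of its probes Acot11 gave 0.57 after genistein and 0.19 in controls, neither called. Acot1 and Acot2 are close paralogs, and cross-hybridisation of their probes was not tested. The 2 calls after genistein became 1 without any one of GenD arrays 1, 2 and 3 or GenV arrays 1 and 4.

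In triglyceride synthesis and breakdown, 1 gene rose and 1 fell of 16 after genistein, and 2 rose and 1 fell in controls. Lpin3, a relative of Lpin1, rose by 1.70 (SE 0.19) after genistein and by 1.44 (SE 0.19) in controls, and both calls held in 30 of 30 alternative settings. Plin2, which coats lipid droplets, was called lower in both, at -0.71 and -0.77. Pnpla2, adipose triglyceride lipase, rose by 2.10 (SE 0.20, limma adjusted p = 3.72e-05) in controls, called in 30 of 30 alternative settings. The count after genistein was 1 without GenD array 1, 2 or 3 or GenV array 3, and that in controls was 5 without SalD array 1. Lpl, the enzyme that Angptl4 inhibits, changed by -0.23 after genistein and 1.23 (SE 0.53) in controls, without a call.

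In glucose uptake, glycolysis and gluconeogenesis, 2 genes rose and 1 fell of 25 after genistein, and 3 rose and 4 fell in controls. Hk2, a hexokinase of insulin-sensitive tissue, rose by 0.98 after genistein and 1.24 in controls, and Hk3 was called lower at -1.13 and -1.37. The Hk3 call after genistein held in 12 of 29 alternative settings, with changes between -1.29 and -0.47, and ended without GenD array 1, 2 or 3, GenV array 1, 3 or 4, SalD array 1 or SalV array 3 or 4. The glucose transporter Slc2a1 rose by 1.36 in controls, and Pfkfb3, an activator of glycolysis, by 0.75. The transporter Slc2a3 rose by 1.30 after genistein. Without SalV array 1 the count in controls was 4. Slc2a4, the insulin-responsive transporter, changed by 0.37 after genistein and 0.68 in controls, not called.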

How the data were processed

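The genes, gene lists and tests were chosen with earlier results of these data known. Per the file headers, the values are background-subtracted spot intensity (linear, with no scaling across arrays) from Agilent Feature Extraction 12.0.0.7. Version 9.5 is named in the submitters' processing notes. The deposited value matrix repeated these intensity values exactly (largest difference 0). Spot flags, per the file headers, are 0 or 1.

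Each array was scaled by subtracting log2 of its 75th percentile. Flagged spots were set to missing and repeated spots averaged. A probe was kept with at least 3 unflagged arrays in each group and well-above-background signal on 4 or more of the 16. This left 33362 of 41174 probes. Keeping the 807 probes with a flagged spot, of which 9 were dropped by this rule, was chosen after values were seen. Dropping all 807 would leave Angptl4 untested and Insr on its dim probe. RefSeq accessions matched 28223 of 29245 such probes to a gene of GRCm38.p6, and the brightest probe stood for each gene.

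One model with 4 group means was fitted to 16 arrays with limma 3.58.1 in R 4.3.3 (with data.table, version 1.17.8), with two-sided moderated tests, Benjamini-Hochberg adjusted over 25030 genes and targets, and called below 0.05. In each list and dexamethasone comparison, up to 4 called genes of largest change were named, or 2 of smallest p where none was called, and the 3 genes most correlated with each member. Foxo1, Igf1r, Pdk3, Ppara, Ppargc1a, Lpl, Slc2a4 and the named markers of other cell types were added after their values were seen. A few genes that this rule picks are not reported here. The code was tested on simulated data. Figures used Python 3.11.15 and matplotlib 3.10.9.

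The alternatives were quantile normalization, median scaling, normexp with offset 50 on median signals, no filter, detection required on all 16 arrays, averaged probes per gene, slide as a fixed or random block, replicate block, array weights, only the arrays compared, leaving out each array or 2 pairs of arrays, and dropping flagged probes. Slide was taken from the array barcode, which gave 5 slides. Slide 3 held only SalV array 3 and slide 5 only genistein arrays, so slide and group are partly confounded. The replicate numbers did not pair the arrays. Same-number correlations ran from -0.37 to 0.38, and 8 of 24 were over 0.1.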

Additional observations from a re-analysis of the deposited data

Results flagged for a closer look

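Among 30 groups of 4 arrays tested for a lone array, 3 had a highest or lowest value standing apart, and chance gives about 1 in 20. Pdk1 on GenD array 1 was 0.18, and the other 3 GenD arrays lay between -0.05 and -0.02. Pdk1 on GenV array 3 was -0.69, with the other 3 between 0.11 and 0.14. Lpin1 on SalV array 4 was -0.40, with the other 3 between 0.08 and 0.13. Without that array the Lpin1 rise in controls was 0.65 (limma adjusted p = 0.0497).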

How the results depend on the processing

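Of 1187 values of the 8 genes under alternatives, 1066 kept direction and side of the threshold, 59 lost a call, 19 gained one and 43 changed sign. In controls the 5 calls became 3 with normexp, slide as a fixed block, only the arrays compared or flagged probes dropped, and 1 without SalD arrays 2 and 3, with 2 to 6 on leaving out 1 array. The 1 call after genistein became 0 with normexp, slide as a fixed block, only the arrays compared or without GenV arrays 3 and 4, and 0 to 1 on leaving out 1 array. The 2 calls of GenD against SalD became 0 with normexp or without SalD arrays 2 and 3, 1 with the mean of probes or only the arrays compared, and 0 to 3 on leaving out 1 array. The causes were not tested. The replicate block gave 6, 1 and 2 calls in these comparisons; the numbers did not pair the arrays, and 5 of 16 arrays correlated best with their own number. Counts over all genes ran from 3151 to 7060 in controls (main 5764), 393 to 4150 after genistein (1331) and 2394 to 10150 for GenD against SalD (5714). The median of all genes in controls was -0.16, and -0.05 with quantile normalization, 0.07 with median scaling and -0.48 with normexp.

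Signs changed as follows, and the cause was not tested. In controls, Insr gave -0.077 with flagged probes dropped, Ucp3 -0.92 with normexp, and Pdk1 -0.036 without SalD arrays 2 and 3 and -0.066 to 0.19 on leaving out 1 array. After genistein, Lpin1 gave -0.024 without GenV arrays 3 and 4. Pdk1 there gave -0.00489 with slide as a block, -0.074 with array weights, -0.12 without GenV arrays 3 and 4, and -0.11 to 0.17 on leaving out 1 array. For the difference of the dexamethasone effects, normexp gave 0.12 for Acot2 and -0.047 for Cpt1a, median scaling -0.088 for Cpt1a and -0.14 for Pdk1, and array weights 0.034 for Angptl4 and -0.091 for Pdk1. The mean of probes gave 0.26 for Insr and -0.053 for Pdk1, dropping flagged probes 0.59 for Insr, slide as a block -0.075 for Pdk1, and leaving out arrays -0.16 for Pdk1 (GenV 3 and 4) and 0.10 for Pdk4 (SalD 2 and 3). On leaving out 1 array it ran from -0.00013 to 0.25 for Cpt1a, -0.28 to 0.015 for Insr and -0.155 to 0.16 for Pdk1. For GenV against SalV, array weights gave -0.13 for Angptl4, 0.075 for Insr and 0.13 for Lpin1, slide as a block -0.013 for Angptl4, the mean of probes 0.071 and dropping flagged probes 0.26 for Insr. Without GenV arrays 3 and 4 it was 0.17 for Insr, -0.10 for Irs1, 0.11 for Lpin1 and 0.15 for Pdk4. On leaving out 1 array it ran from -0.081 to 0.26 for Angptl4 and -0.25 to 0.026 for Lpin1. For GenD against SalD, Insr gave 0.33 with the mean of probes and 0.86 with flagged probes dropped. With 4 arrays a group, array number limits the precision.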
